A study of Mus musculus with 5 samples.

Results

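Foxa1, Foxa2, Foxj1, Spon1 and Lmx1b are 5 genes with a place in the biology of the floor plate, and they were followed over the differentiation of mouse embryonic stem cells (ES) into spinal motor neurons. They were selected on their measured normalized log2 levels and detection over the 5 arrays described here, so their changes over time are given as a description and support nothing by themselves. All probes whose accession matched 1 of the 5 symbols were taken, which gave 7 probes: 2 each for Foxa2 and Lmx1b, and 1 for each of the others. The arrays carried 19897 genes with a matched symbol in all.

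Total RNA of wild-type cells, labelled as male, was hybridised to 5 one-colour Agilent mouse expression arrays, 1 for each time point. The ES sample was untreated stem cells. Day2, Day3 and Day4 were embryoid bodies (floating aggregates of differentiating cells) that had received retinoic acid (RA) for 8 h, 1 day and 2 days, and Day7 was labelled as motor neurons at 5 days of RA. The treatment protocol in the labels gives RA and Shh from day 2 to day 5, whereas the paper names a Smoothened agonist as the ventralising signal. No label mentions a cell sort, so each array measured a mixture of cells, and fewer cells of a type cannot be told apart from less RNA per cell. As each time point was measured on a single array, replicate error is unknown and no test was possible. A change of at least 2-fold was used as a fixed rule of size.

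The floor plate is the strip of glial-like cells at the ventral midline of the neural tube. Notochord-derived Sonic hedgehog (Shh) induces Foxa2 there, and Foxa2 in turn helps to switch on Shh in the floor plate itself, which then patterns the progenitors of motor neurons and ventral interneurons beside it. Foxa1 is a close relative of Foxa2 and, like it, is a pioneer factor that can bind closed chromatin. Both are also central regulators of the endoderm. Floor plate cells carry motile cilia, whose genes are controlled by Foxj1, and they secrete guidance and matrix proteins, among them netrin 1, the Slit proteins and F-spondin, the product of Spon1. Lmx1b, a LIM homeodomain factor, is best known in midbrain floor plate and dopaminergic progenitors, in serotonergic neurons and in dorsal spinal interneurons, so it marks rostral more than spinal floor plate.

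Foxa proteins recognise the forkhead core TGTTTAC, and the start of Foxa1 holds 1 copy of it while the start of Foxa2 holds none. The 250 bases upstream of their RefSeq starts are shown because these 2 genes carry the early part of the pattern described here. Capitals mark the core, read on the opposite strand, and its first base lies 141 bases upstream of the Foxa1 start. Coordinates are those of GRCm38.p6, and both sequences are on the minus strand, at chr12:57546112-57546361 for Foxa1 and chr2:148046970-148047219 for Foxa2.
Foxa1 promoter: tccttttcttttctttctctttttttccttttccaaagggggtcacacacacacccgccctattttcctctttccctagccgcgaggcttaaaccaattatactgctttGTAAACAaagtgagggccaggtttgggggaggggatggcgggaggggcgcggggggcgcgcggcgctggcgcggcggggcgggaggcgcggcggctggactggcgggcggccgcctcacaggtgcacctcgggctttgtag
Foxa2 promoter: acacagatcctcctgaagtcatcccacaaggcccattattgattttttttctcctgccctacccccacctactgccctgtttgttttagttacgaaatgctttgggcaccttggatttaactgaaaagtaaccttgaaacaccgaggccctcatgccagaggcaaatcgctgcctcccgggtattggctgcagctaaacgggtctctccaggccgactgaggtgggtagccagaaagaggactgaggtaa
The forkhead core was searched on both strands in windows reaching from 250 bases before to 50 bases after each RefSeq start, and 3.65% of 32851 such windows held it. The form TGTTTGC occurred in 5.07% of the windows, the Gli motif GACCACCCA in 0.253% and the retinoid receptor half-site AGGTCA in 16.3%. The 5 windows that matched (3 starts of Foxa2, 1 of Foxa1 and 1 of Lmx1b) held none of these 3 motifs. No factor binding was measured, and these matches are only letters in a window.

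Signals are given as the background-subtracted processed signal of the scanner software and, after quantile normalization over the 5 arrays, as normalized log2 signal. Errors are the software's own estimate for 1 spot, which covers spot and background noise but not the variation between cultures. A probe was detected where the software called it well above background. Levels of different probes are not comparable with each other, because each probe has its own response.

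Foxa2 was the most strongly raised of the 5 genes relative to ES at each later time point. Its brighter probe gave a processed signal of 99.5 in ES, 997 at Day2, 1057 at Day3, 1692 at Day4 and 20889 at Day7. The normalized log2 levels were 6.59, 9.55, 10.36, 11.52 and 14.12. Every time point was thus higher than the one before it. The narrowest step, from Day2 to Day3, was 0.81 ± 0.20 (log2, software error), but 0.09 without normalization, which is within the error, and 1.46 as the mean over both probes. From ES, the level rose 7.79-fold to Day2, 13.6-fold to Day3, 30.6-fold to Day4 and 186-fold to Day7, a log2 change of 7.54 ± 0.23 over the whole course. By Day2, after 8 h of RA, 39.3% of this log2 rise had taken place on the brighter probe, and by Day4 65.5%. All these folds rest on 1 low reading in ES. Only 62 of 15838 genes with a value rose more from ES to Day7.

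The dimmer probe of Foxa2 gave the same order. It was not well above background in ES, at a processed signal of 23.4, and then read 147, 187, 292 and 3948 from Day2 to Day7. Its normalized log2 levels were 5.89, 8.00, 8.99 and 11.50 at these 4 time points. Set against its own ES value, it was at least 2.58-fold higher at Day2 and at least 126-fold higher at Day7. On the log2 scale these bounds were 1.37 and 6.98, and its step from Day2 to Day3 was 2.11. With both probes averaged, the log2 change from ES was 2.16 at Day2 and 7.26 at Day7. By these values, the share of the rise reached at Day2 was smaller than the 39.3% of the brighter probe. Both probes match the same accession, so they are not independent genes, but each of them recorded the early and the late step.

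Foxa1 also moved early, but by less, and it then paused. Its 1 probe read 207 in ES, 615 at Day2, 533 at Day3, 377 at Day4 and 10152 at Day7 as processed signal. The normalized log2 levels were 7.60, 8.72, 9.40, 9.35 and 12.97. Day3 and Day4 differed by less than the software error (-0.05 ± 0.20), and the direction of the step from Day2 to Day3 rested on scaling: it was 0.69 after quantile normalization and -0.21 without normalization. Against ES, Foxa1 was raised by 1.12 ± 0.21 at Day2, 1.80 at Day3 and 1.76 at Day4 on the log2 scale, and 41.5-fold at Day7. A further rise of 12.3-fold separated Day4 from Day7. Foxa1 had thus covered 20.8% of its log2 course by Day2 and 32.7% by Day4.

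**Figure D1:**
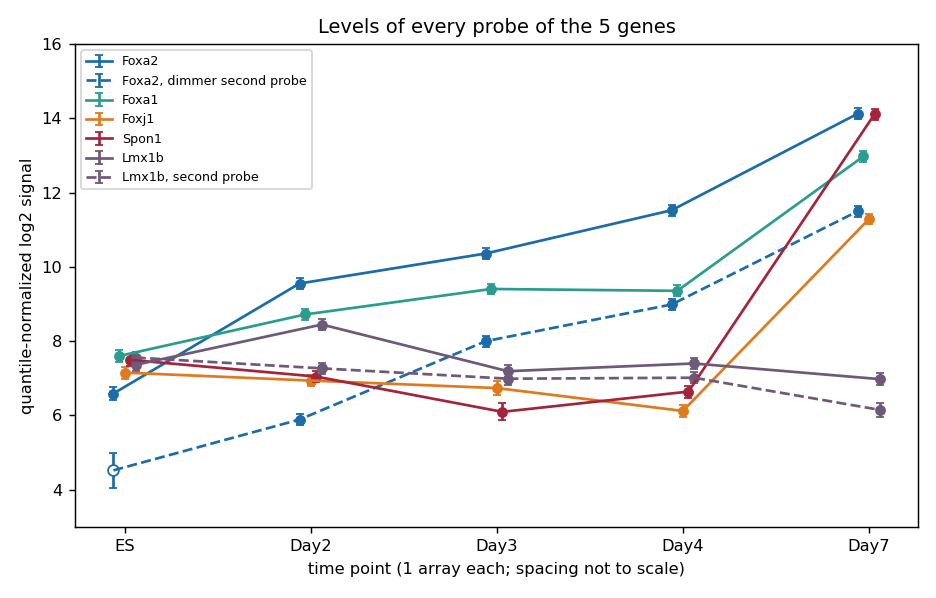
Quantile-normalized log2 signal (y axis) of all 7 probes of the 5 genes at each time point (x axis, 1 array each, spacing not to scale); bars are the scanner software's error estimate and the open circle is a probe not well above background. Foxa2 climbs at every time point, Foxa1 in 2 steps, Spon1 and Foxj1 rise above their ES level only at Day7, and Lmx1b ends below its ES level.

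Foxj1, the master regulator of motile cilia, was raised only at Day7 among the 4 later time points. Its processed signal was 150 in ES, 239 at Day2, 72.0 at Day3, 37.0 at Day4 and 3477 at Day7. The normalized log2 levels were 7.15, 6.94, 6.73, 6.12 and 11.29, a step of -0.21 ± 0.22 to Day2 and of -0.20 ± 0.23 to Day3. The step from Day2 to Day3 depended on scaling, at -0.999 after a shift to the 75th percentile and -1.73 without normalization. At Day4 Foxj1 was lower than in ES by just over the rule of size, at -1.03 ± 0.24, and normexp background correction brought this to -0.52. From Day4 to Day7 it rose 35.9-fold, and it ended 17.6-fold above ES.

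Spon1 showed the largest step of the 5 genes between Day4 and Day7. F-spondin is a matrix protein that floor plate cells lay down and that guides commissural axons. The processed signal of Spon1 was 191 in ES, 252 at Day2, 43.7 at Day3, 54.5 at Day4 and 20766 at Day7. The normalized log2 levels were 7.49, 7.04, 6.09, 6.64 and 14.11. Spon1 thus lay lower at Day3 than in ES, by -1.40 ± 0.28, although this came to -0.84 under normexp correction. It rose 177-fold from Day4 to Day7, a step exceeded by only 24 of 16082 genes, and stood 98.0-fold above ES at Day7.

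Lmx1b was the exception, with no rise at Day7 on either probe. The brighter probe read 174, 525, 102, 95.2 and 162 as processed signal from ES to Day7, and 7.36, 8.45, 7.19, 7.40 and 6.97 as normalized log2 level. The ES, Day3 and Day4 levels of this probe differed by no more than 0.21 ± 0.22, and at Day7 it was at -0.39 ± 0.22 relative to ES. The other probe gave normalized log2 levels of 7.56, 7.27, 6.99, 7.01 and 6.15, which put Day7 at -1.41 ± 0.24 relative to ES. The probes disagreed on Day2, where the brighter one was 1.09 above ES and the other was at -0.29. The Day2 rise of Lmx1b came to 0.40 when both probes were averaged and to 0.58 under normexp correction.

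The Day2 array stood apart from the others. On it 86.9% of the spots were well above background, against 58.5% to 66.4% on the other arrays, and 71.2% of 1067 olfactory receptor genes, which these cells are not known to use, were called detected there, against 9.37% to 14.7% elsewhere. The part of the Day2 array in the Day2 values was not tested. Day7 was hybridised on a slide of its own, so in every change to Day7 the slide and the stage cannot be told apart.

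Counted by the rule of size, 3 of the 5 genes (Foxa1, Foxa2 and Lmx1b) were raised from ES to Day2, when 10.7% of all genes with a value were. At Day3 the raised genes were Foxa1 and Foxa2, against 15.6% of all genes, and Spon1 was lowered, against 10.2%. At Day4 the same 2 genes were raised, against 17.0% of all genes, and Foxj1 was lowered, against 14.4%. At Day7 all but Lmx1b were raised, 4 of 5, against 24.8%. The same 4 rose between Day4 and Day7, against 18.1%. Since the 5 genes were chosen with these values known, nothing is read from their share against that of all genes.

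**Figure D2:**
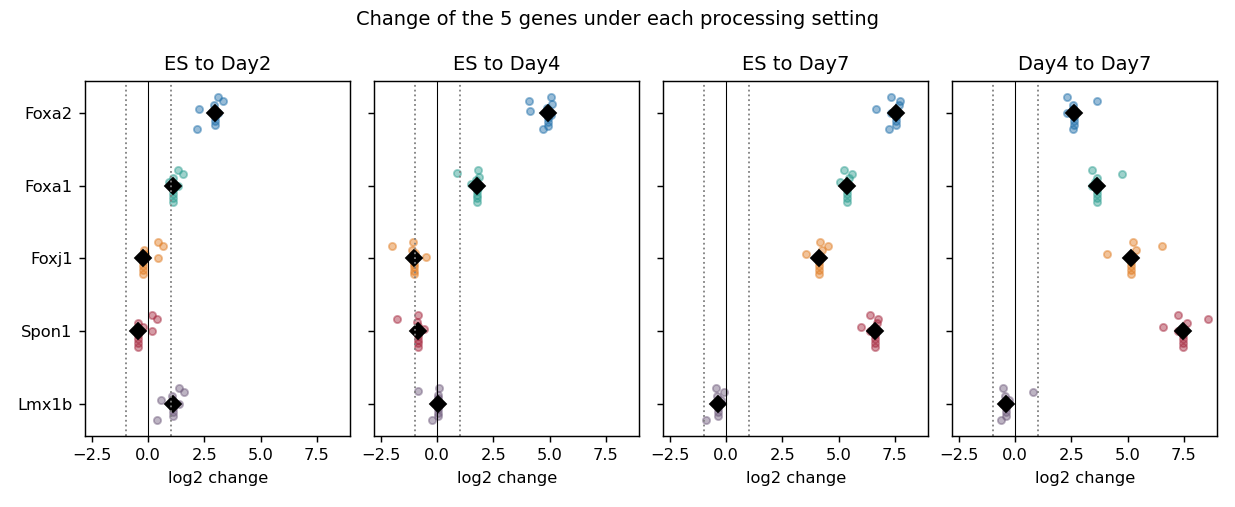
Log2 change (x axis) of each of the 5 genes (rows) in 4 comparisons; black diamonds are quantile-normalized values, coloured points the same change under the other processing settings, and dotted lines mark 2-fold. All settings keep Foxa1, Foxa2, Foxj1 and Spon1 past 2-fold at Day7, whereas the Foxa1 and Lmx1b points at Day2 straddle the line.

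The label was checked against 12 other floor plate genes, a list chosen with results of these data known. From ES to Day2, 2 of the 11 with a value were raised, Slit2 and Ferd3l, and 2 were lowered. Of all genes, 10.7% were raised and 11.3% lowered there. At Day3 3 of 8 with a value were raised, against 15.6% of all genes. At Day4 6 were raised, 1 was lowered, 2 changed by less than 2-fold and 3 were detected on neither array. Of all genes, 17.0% were raised and 14.4% lowered at Day4, and the medians were 1.56 for the list and 0.05 for all genes. At Day7 11 of 12 were raised, against 24.8% of all genes. The median log2 change at Day7 was 6.13 against -0.07 for all genes, and 4.02 over the listed genes detected on both arrays. The exception was Lmx1a, a relative of Lmx1b that marks the roof plate and the midbrain floor plate, at -0.41. Corin, a marker of midbrain floor plate, was raised by 1.98.

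Shh itself was not well above background in ES, Day2, Day3 or Day4, and reached a normalized log2 level of 12.71 at Day7, at least 369-fold above ES. Foxa2 was therefore raised at 3 time points at which Shh RNA was not detected. Ferd3l, a bHLH gene of the ventral midline, was at least 48.7-fold higher at Day7, but its level of 8.57 on the Day2 array fell below detection again at Day3 and Day4.

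Genes of other secreted proteins moved before Spon1 did. Ntn1 encodes the axon attractant netrin 1, and its normalized log2 levels were 7.75 in ES, 6.53 at Day2, 9.83 at Day3, 10.82 at Day4 and 14.58 at Day7, so it was raised by 2.08 at Day3 and 3.06 at Day4, time points at which Spon1 was below its ES level. Vtn, which encodes the matrix protein vitronectin, was first raised at Day4, by at least 2.57 on the log2 scale, and reached 14.88 at Day7. Slit1, Slit2 and Slit3, the midline repellents, were raised by 1.56, 2.25 and 1.86 at Day4, and stood 6.65, 7.23 and 3.59 above ES at Day7 on the log2 scale. The Slit genes and Nrcam are also used by neurons and do not mark floor plate alone. All 7 motor neuron genes, with Isl1, Isl2, Lhx3 and Chat among them, were raised at Day7 as well, against 24.8% of all genes. Their median was 6.06, against -0.07 for all genes.

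**Figure D3:**
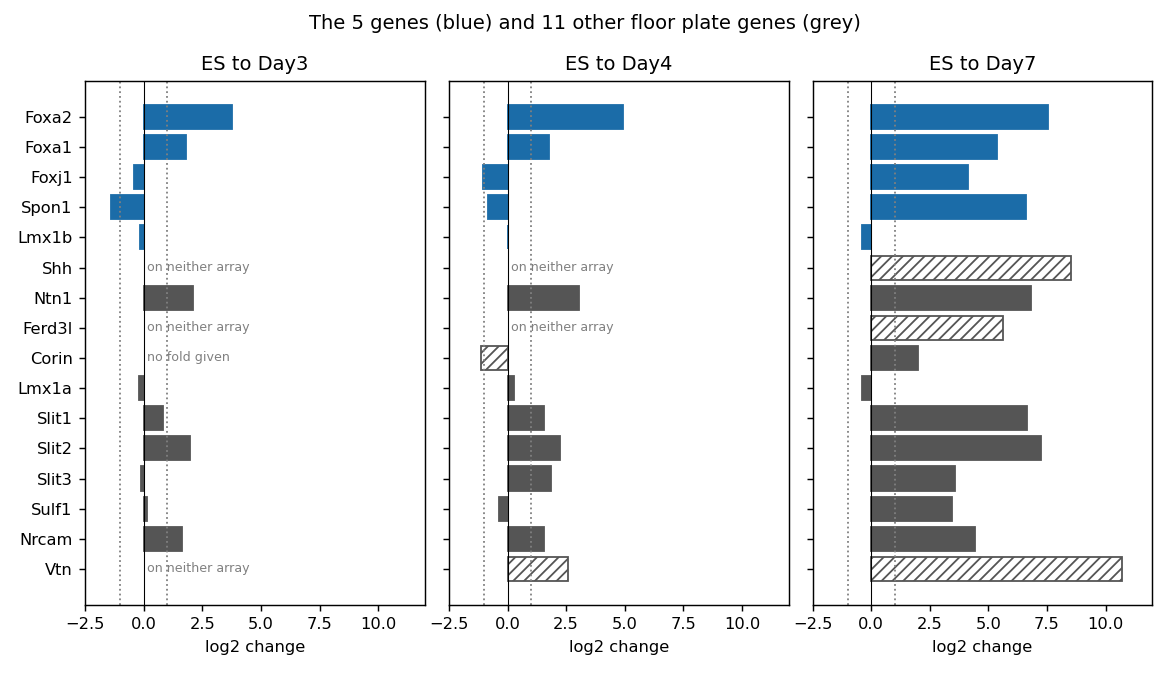
Log2 change from ES (x axis) of the 5 genes (blue) and 11 of the other floor plate genes (grey) at Day3, Day4 and Day7; hatched bars are bounds with the gene not well above background on 1 of the arrays, words stand where a gene was detected on neither array or had no fold, and dotted lines mark 2-fold. At Day3 and Day4 Foxa2 has the longest bar of the genes drawn, and at Day7 all of them but Lmx1b and Lmx1a are past 2-fold.

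Genes that receive and transmit the Shh signal were mostly raised at Day3 and Day4, as Foxa1 and Foxa2 were. Of 11 Shh pathway genes, 1 was raised at Day2, 8 at Day3 and 8 at Day4, when 10.7%, 15.6% and 17.0% of all genes were. At Day4 their median was 1.45, or 0.35 without normalization. Gas1 and Boc, which encode Shh co-receptors, were raised by 3.87 and 3.50 at Day4, and Ptch1, the receptor and a direct target of the pathway, by 1.95. From Day4 to Day7, while Foxa1, Foxa2, Foxj1 and Spon1 rose, 9 of the 11 were lowered and none was raised, when 18.1% of all genes were lowered. Gli1, the target commonly read as a measure of pathway output, fell by 2.92 over that step, Gli2 by 3.02 and Gli3 by 3.17. Against ES, the median at Day7 was -0.15, and it was 0.22 without normalization.

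Of 10 ventral progenitor genes, 8 were raised and 1 lowered at Day4, with a median of 2.91 against 0.05 for all genes, of which 17.0% were raised and 14.4% lowered. Nkx6-1, which spans the ventral progenitor domains and floor plate, rose by 6.01 at Day4 and 7.59 at Day7. Nkx2-9, of the most ventral progenitors, peaked at Day4, at a normalized log2 level of 12.89 against 8.28 in ES and 10.23 at Day7. Nkx2-2, of the domain next to the floor plate, was raised only at Day7, by 2.54. Olig2, of motor neuron progenitors, was already at 10.34 in ES, and was at 11.47 at Day4 and 7.35 at Day7. At Day7 5 of the 10 were raised and 3 lowered, next to 24.8% and 24.4% of all genes.

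Among 41 other forkhead genes, 8 were raised and 13 lowered at Day7, with a median of -0.57 over the 37 with a value. Over all genes, 24.8% were raised and 24.4% lowered in this comparison. Foxa3, the third Foxa gene, went the other way, from 6.55 in ES to 4.74 at Day4, and was not well above background at Day7. Foxb1 and Foxd2, which are used in neural and mesodermal progenitors, were highest at Day4, at 11.07 and 11.23, and lower at Day7, at 7.70 and 9.06.

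Foxj1 drives motile cilia genes in ciliated cells, and a list of these was read beside it. Of 26 genes in the list, 24 had a probe. At Day4, 1 of them was raised and 8 were lowered, next to 17.0% and 14.4% of all genes, and at Day7 6 were raised, 6 were lowered, 8 changed by less than 2-fold and 4 were detected on neither array. Both counts, out of 20 genes with a value, lie near the 24.8% and 24.4% of all genes. The raised genes were Spef2 and Rsph9, a central pair and a radial spoke component, at 3.89 and 3.68, the dynein heavy chain Dnah11 at a bound of 3.14, Dynlrb2 at 2.06, Ccdc39 at a bound of 1.58 and Tekt1 at 1.36. The lowered genes were Ccno, at -3.40, Rsph1 at -2.19, Hydin at -1.60, Dnaic1 at -1.38, Ak7 at -1.29 and Tekt2 at -1.17. Rfx2 and Rfx3, which encode factors that act with Foxj1, were at 0.39 and 0.57. Dnah5 and Dnah9, which encode major outer arm dynein heavy chains, and Spag6 were not detected in ES or at Day7. From Day4 to Day7, 6 were raised and 2 lowered, next to 18.1% of all genes in each direction.

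A list of other spondin and R-spondin genes was read beside Spon1. Of its 6 genes, 4 had a value from ES to Day7. Rspo2 was raised at Day7, by a bound of 1.51, and Rspo1, a Wnt agonist, was lowered, from 11.22 to 8.56. Both counts, 1 raised and 1 lowered, lie near the 24.8% and 24.4% of all genes. Spon2, the closest in name, was raised by 1.92 at Day4 and had returned to -0.10 at Day7. Sspo, which encodes the giant protein that forms Reissner's fibre in the ventricles and central canal, was detected on Day2 only.

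Because Foxa1 and Foxa2 also mark endoderm, the endoderm list was read beside them. At Day2 1 of its 12 genes was raised, Hnf4a, and 3 were lowered, against 10.7% and 11.3% of all genes. At Day3 5 were raised, against 15.6% of all genes, and at Day4 4 were raised and 1 was lowered, against 17.0% and 14.4%, with Sox17 up by 2.41, Gata6 by 4.27, Cxcr4 by 2.13 and Ttr by a bound of 1.40. The summed level of the 12 genes was 9.74 in ES, 10.67 at Day2, 10.81 at Day3, 11.55 at Day4 and 10.85 at Day7 on the log2 scale. This sum adds probes of unlike response, and at Day2 it was led by Hnf4a, at 9.97 on that array and no higher than 4.76 on the others. Some endoderm genes were thus higher at Day3 and Day4 than in ES, as Foxa2 was, and their part in the Foxa1 and Foxa2 levels of Day3 and Day4 was not tested. At Day7, where Foxa1 and Foxa2 were highest, 4 of the 7 endoderm genes with a value were lowered, against 24.4% of all genes, and Cxcr4, which motor neurons also use, was the 1 raised. Sox17, Hnf4a, Ttr, Afp, Apoa1, Cer1 and Foxa3 were not well above background at Day7, and Gata6 was at 6.59 against 10.43 at Day4. The notochord also makes Foxa2, and 3 of its 4 genes were lowered at Day7, none was raised at any of the 4 later time points against ES, and T and Noto were not detected at Day3, Day4 or Day7.

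Lists for the cell types in which Lmx1b is known were small, and their counts are to be set beside the 24.8% of all genes raised and 24.4% lowered at Day7. Among 7 serotonergic genes, Gata3 alone was raised at Day7, by 1.07, and Tph2, the serotonin-making enzyme, was not detected there. Of 5 genes of dI5 interneurons, a dorsal class that uses Lmx1b, Phox2a was raised by 2.42 and Lbx1 lowered, and Tlx3 was detected on Day2 only. Of 9 midbrain dopaminergic genes, Th, Nr4a2 and Slc18a2 were raised, by 2.04, 3.49 and 4.72, while Pitx3 and En2 were lowered and En1 was detected on no array. None of the 7 roof plate genes was raised and Msx2 was lowered. As a check of the course as a whole, 5 of 6 pluripotency genes were lowered at Day7.

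**Figure D4:**
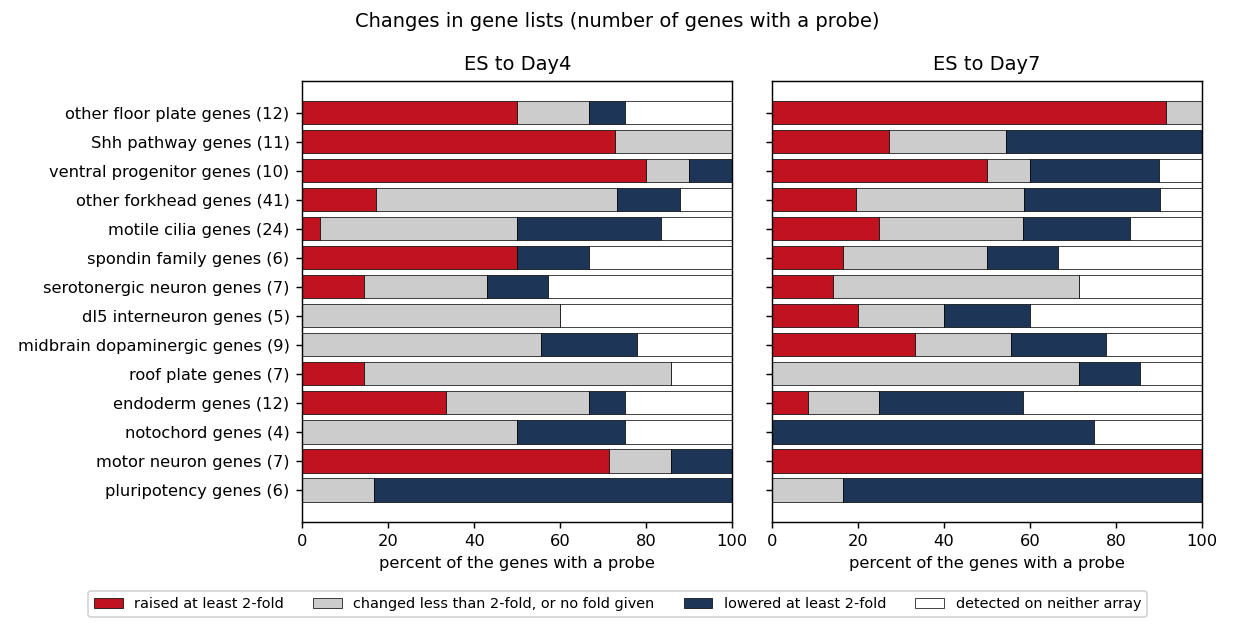
Share of the genes with a probe (x axis, percent) that were raised at least 2-fold, changed by less, were lowered at least 2-fold or were detected on neither array, for 14 gene lists (rows, number of genes in brackets), from ES to Day4 and to Day7. At Day7 other floor plate and motor neuron genes are nearly all raised, while 3 of 4 notochord genes, 5 of 11 Shh pathway genes and 4 of 12 endoderm genes are lowered. Of all genes with a value, 24.8% were raised and 24.4% lowered at Day7.

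The genes most like each of the 5 were sought among 16155 genes detected on at least 2 arrays, by the root mean square difference of mean-centred log2 profiles over the 5 arrays. For Foxa1 these were Begain (0.13), Rhox8 (0.17), Dusp8 (0.21), Reep1 (0.21) and Dcc (0.22), the last of which encodes the netrin receptor. For Foxa2 they were Prl4a1 (0.32), Serpinb9g, Prl2c5, Prl7d1 and Zfr2 (0.48), of which all but Prl2c5 were below detection in ES and the first 4 belong to multigene families whose members can share probe sequence. Foxa1 was 1.03 away from Foxa2 by this measure. The profile of Foxj1 was closest to Map6 (0.15), Ube2ql1, Pcsk1n and Rab33a (0.23), and that of Spon1 to Nefl (0.40), Aldh1a2, Mapt, Pcp4 and Dync1i1 (0.72). Nefl and Mapt encode cytoskeletal proteins of axons. Lmx1b was closest to Iigp1 (0.08), Prpmp5, Cdh20, Rap1gap2 and Tmc2 (0.12). Its match rests on its brighter probe, whose Day2 rise the other probe did not show. A likeness over 5 arrays, 1 for each time point, is a description only.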

How the data were processed

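The authors deposited the output of Agilent Feature Extraction 10.5.1 for each of the 5 arrays, holding intensity values per spot after background subtraction and detrending, with flags for outliers and for spots well above background. A table of log2 values that they deposited as well equalled log2 processed signal minus the array's 75th percentile within 0.01 for at least 99.8% of probes of each array. Of 55681 mouse probes, 26300 matched a symbol through RefSeq accessions of GRCm38.p6, used for names because the array's own build was not given in the sources used here.

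Control and outlier spots were left out, spots were averaged per probe, and log2 processed intensity was quantile-normalized (limma 3.58.1, R 4.3.3), as the study's heat map legend names quantile analysis. Later steps used Python 3.11.15, numpy 2.4.6, pandas 2.3.3 and matplotlib 3.10.9. The probe brightest on average stood for its gene. A probe not well above background took its own value or that array's lowest value well above background, whichever was higher, and its fold is a bound ("at least"). Where the detected side did not exceed that level, no fold is given and the change entered medians as 0. Genes detected on neither array had no value. The calling steps were tested on simulated data. The number of arrays limits the precision: spots of 1 probe on 1 array had a median SD of 0.06 to 0.11 log2.

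Genes named are the 5 genes, any gene of the 14 lists, and the 5 genes most like each in profile; some of these are not reported here. The genes and lists were chosen with earlier results of these data known. The alternatives were a shift to the 75th percentile, no normalization, normalization without Day2 or without Day7, normexp (offset 50) on median signals before quantile normalization, the mean over probes, the deposited log2 values, dim probes left unfiltered, a second detection flag, detection on both arrays, and thresholds of 1.5-fold and 4-fold.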

Additional observations from a re-analysis of the deposited data

How the results depend on the processing

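The number of the 5 genes raised at least 2-fold at Day7 was 4 under every setting run, from ES and from Day4. From ES to Day2 the count of 3 came to 1 under normexp correction, where Foxa1 was at 0.91 and Lmx1b at 0.58, and to 1 at 4-fold. It came to 2 with the mean over probes, where Lmx1b was at 0.40. From ES to Day3 it came to 1 at 4-fold, and from ES to Day4 to 1 without normalization, where Foxa1 was at 0.86, and to 1 at 4-fold. Where 1 gene was left, it was Foxa2. Over the settings other than those of the threshold, the log2 change from ES to Day7 ran from 6.68 to 7.71 for Foxa2, 5.06 to 5.61 for Foxa1, 3.57 to 4.54 for Foxj1, 5.99 to 6.76 for Spon1 and -0.90 to -0.10 for Lmx1b. Some changes that were below 2-fold after quantile normalization differed in sign between settings. From ES to Day2 these were Foxj1 (-0.21 to 0.68) and Spon1 (-0.45 to 0.40). For Lmx1b they were ES to Day4 (-0.87 to 0.09), Day3 to Day4 (-0.10 to 0.35) and Day4 to Day7 (-0.65 to 0.77). For Foxa1 they were Day2 to Day3 (-0.21 to 0.69) and Day3 to Day4 (-0.50 to 0.0044). Foxj1 from Day2 to Day3 (-1.73 to 0.0023) also changed sign, and only its unnormalized value of -1.73 was past 2-fold. Without normalization the median of all genes moved by -1.06 from ES to Day4 and by 1.06 from Day4 to Day7, so changes there are to be read against that shift. The share of raised genes among all changed genes from ES to Day2 was 48.7%, but 74.9% after a shift to the 75th percentile and 85.4% without normalization. These shares were 60.3%, 48.0% and 17.9% at Day3, 54.1%, 45.8% and 9.53% at Day4, and 49.9%, 44.4% and 94.0% for the step from Day4 to Day7. The median of the other floor plate genes at Day4 was 0.67 without normalization, and that of the endoderm genes at Day7 ranged from -1.67 to -0.06. The causes were not tested. No paired analysis was possible because no time point had a second array, and no replicate could be left out. Slide could not enter as a block, since the second slide held Day7 only.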
